A study of Mus musculus with 12 samples.

Results

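The 10 heat shock chaperone genes Hspb1, Hspa1a, Hspa1b, Hspa8, Hspa5, Dnajb1, Hsph1, Hsp90aa1, Hspd1 and Hspe1 were followed through all 12 libraries of a polyA RNA-seq table of 35856 genes. They were picked by gene symbol, and all 10 were among the 15663 genes that reached 1 TPM (transcript abundance scaled for length and depth) in at least 2 libraries. The cells were cardiac precursors made from C57BL/6 mouse embryonic stem cells, by 48 h as embryoid bodies, 43 h of reaggregation with VEGF, Activin A and BMP4, and 32 h as a monolayer with VEGF, basic FGF and FGF10, the same in all groups. They came in 3 lines that each carry a degron on 1 subunit of Polycomb repressive complex PRC2, which places a repressive methyl mark on histone H3. The groups were SUZ12-AID with auxin, SUZ12-AID untreated, MTF2-AID with auxin, MTF2-AID untreated, AID-JARID2 with auxin and AID-JARID2 untreated, with 2 libraries in each, described as biological replicates. SUZ12 belongs to the core of the complex, whereas JARID2 and MTF2 bind it as accessory factors. AID is a tag that auxin (indole-3-acetic acid, 50 µM) marks for destruction through the plant protein Tir1, which all 6 groups carried. The labels do not say when auxin was added or for how long. Each subunit had 1 line, and no untagged line with auxin was included, so an effect of the auxin compound, of the line and of the loss of the subunit cannot be told apart.

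Heat shock proteins are molecular chaperones that hold unfolded proteins, refold them or hand them on for degradation. In the cytosol, a J protein delivers a client to HSP70, a nucleotide exchange factor resets HSP70, and HSP90 finishes the folding of kinases and receptors. Stress-induced members are switched on by the transcription factor HSF1 through heat shock elements, inverted repeats of the letters GAA, whereas constitutive members are abundant in unstressed embryonic stem cells. The endoplasmic reticulum (ER) and the mitochondrion have chaperones of their own, whose genes also answer to the unfolded protein responses of those compartments.

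The libraries held 10138920 to 17173072 reads assigned to genes, as recovered from the TPM values, and 18964 to 21026 genes above 0. One library, SUZ12-AID untreated replicate 1, stood apart in the shape of its distribution, with a 75th percentile of 8.99 TPM against 10.3 to 11.8 TPM in the other 11 libraries, and member counts that rest on it are given with and without it. The degron acts on protein, so transcripts of the tagged genes check nothing about its loss: Jarid2 had 104 and 113 TPM in auxin-treated AID-JARID2 cells and 45.3 and 43.5 TPM in untreated AID-JARID2 cells, and Suz12 had 106 and 109 TPM in auxin-treated SUZ12-AID cells and 113 and 127 TPM in untreated SUZ12-AID cells. The cells carried cardiac precursor markers such as Hand1, Gata4, Isl1 and Mef2c in every untreated group, but Tbx5 stayed under 0.5 TPM in all untreated groups.

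Promoter sequences from RefSeq (GRCm38.p6) matched 8 of the 10 members; Hspa8 and Hsp90aa1 were not matched. They are shown for the genes whose transcripts moved most, because the start of each gene is where heat shock elements can be read directly. Positions count from the start site, with -1 as the last base before it, and give the first base of a match. The 3-unit heat shock element, a 13-base match of TTC, GAA and TTC (or GAA, TTC and GAA, its reverse complement) with NN between units, was in 0.603% of 32851 promoter windows reaching from 250 bases before to 50 bases after a start site. The shorter GAANNTTC was in 7.86% and TTCNNGAA in 8.52% of the same windows, and each 3-unit match also holds both of them. The first 3 sequences give the 250 bases before the start sites of Hspb1 (chr5:135887669-135887918, plus strand), Hspa1a (chr17:34972157-34972406, minus strand) and Hspa1b (chr17:34959239-34959488, minus strand), each directly upstream of the annotated gene, with every GAANNTTC in capitals.
Hspb1: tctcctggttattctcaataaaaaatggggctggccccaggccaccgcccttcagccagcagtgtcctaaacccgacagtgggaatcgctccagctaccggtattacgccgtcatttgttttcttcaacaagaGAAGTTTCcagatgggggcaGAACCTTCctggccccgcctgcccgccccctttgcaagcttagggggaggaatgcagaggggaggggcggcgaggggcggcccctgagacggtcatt
Hspa1a: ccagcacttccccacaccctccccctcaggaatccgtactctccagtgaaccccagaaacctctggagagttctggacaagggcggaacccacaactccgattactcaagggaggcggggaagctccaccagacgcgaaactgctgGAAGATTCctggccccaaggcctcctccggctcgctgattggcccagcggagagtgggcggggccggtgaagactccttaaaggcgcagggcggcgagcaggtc
Hspa1b: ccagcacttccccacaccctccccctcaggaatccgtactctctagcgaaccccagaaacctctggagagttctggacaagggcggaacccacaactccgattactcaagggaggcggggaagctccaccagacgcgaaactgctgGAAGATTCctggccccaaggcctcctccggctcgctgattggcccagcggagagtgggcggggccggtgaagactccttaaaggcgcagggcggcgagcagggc

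Hspb1 held 2 such elements, at positions -117 and -97. Hspa1a and Hspa1b each held 1, at position -104, and their upstream sequences were 98.8% identical. The 3 differences were C44T, T47C and T249G, counted from the first printed base with the base of Hspa1a first, and none fell in the element. The next 2 sequences are 30-base pieces with a longer match. The Hspe1 piece (chr1:55088053-55088082, plus strand) lies upstream of the Hspe1 gene and inside the annotated Hspd1 gene, since both genes start head to head and overlap by 112 bases. Its capitals mark 2 overlapping 3-unit heat shock elements at positions -89 and -84 of Hspe1. The same bases, read on the other strand, lie before the second of 2 Hspd1 start sites, from position -144. The Hspa5 piece (chr2:34772020-34772049, plus strand) lies upstream of the RefSeq start and inside the annotated gene. Its capitals mark the ER stress element at position -65, a 19-base match that begins with CCAAT and ends with CCACG, searched on both strands, which 0.119% of the windows held.
Hspe1 piece: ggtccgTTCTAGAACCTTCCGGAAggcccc
Hspa5 piece: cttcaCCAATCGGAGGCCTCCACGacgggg

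Hsph1 held TTCTCGAA at position -33 of its first start site and a 3-unit element at position 37, after that start. None of these heat shock motifs was in the Dnajb1 windows, which says only that these letters are absent there. A match is a description of sequence and not a measured binding site.

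The deposited table names the members by symbol, and all are protein-coding genes in the mm10 annotation (GENCODE vM21). On the plus strand lie Hspb1 (chr5:135887919-135889563), Hspa5 (chr2:34771970-34777547), Dnajb1 (chr8:83608193-83612653), Hspa8 (chr9:40800984-40810087) and Hspe1 (chr1:55088132-55091307). On the minus strand lie Hspa1a (chr17:34969190-34972156), Hspa1b (chr17:34956436-34959238), Hsph1 (chr5:149614287-149636376), Hsp90aa1 (chr12:110690605-110702728) and Hspd1 (chr1:55077835-55088243). The values describe whole genes, with no split by exon.

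Auxin against untreated asks, in each line, which chaperone transcripts differ once the tagged subunit is targeted. In the limma fit across all genes (log2 of TPM + 1, Benjamini-Hochberg adjusted p under 0.05), 9 of the 10 members changed in AID-JARID2, 8 of them higher and 1 lower. In SUZ12-AID 4 of 10 changed, 3 higher and 1 lower, and in MTF2-AID 0 of 10 changed. Over all tested genes 36.5% changed in AID-JARID2 (19.5% higher, 17% lower), 19.1% in SUZ12-AID (15.1% higher, 4.05% lower) and 0.0638% in MTF2-AID. The SUZ12-AID share was 8.77% without SUZ12-AID auxin replicate 2 and 7.62% with 1 variance weight per line, and the MTF2-AID share was 0.0319% to 0.243% without 1 library and 1.05% with the weights. With the weights the AID-JARID2 share was 48%, and 10 of 10 members were called there. Among the 3938 genes with a mean of at least 50 TPM, where 8 of the members lie, 44.5% changed in AID-JARID2 and 18.8% in SUZ12-AID. The median log2 change of the members was 0.38 in AID-JARID2, -0.01 in SUZ12-AID and 0.08 in MTF2-AID, beside 0.01, 0.06 and 0.01 over all tested genes. Without SUZ12-AID untreated replicate 1, the count was 5 of 10 in SUZ12-AID and stayed 9 in AID-JARID2. In SUZ12-AID it was 2 without auxin replicate 2, and 1 in a fit of that line's 4 libraries alone. In MTF2-AID 4 of 10 members had an unadjusted p under 0.05. The share of all genes at that threshold was not computed, so that count cannot be set against all genes. For MTF2-AID, voom on the recovered reads called 0 members and a fit with 1 variance weight per line called 2.

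**Figure D1:**
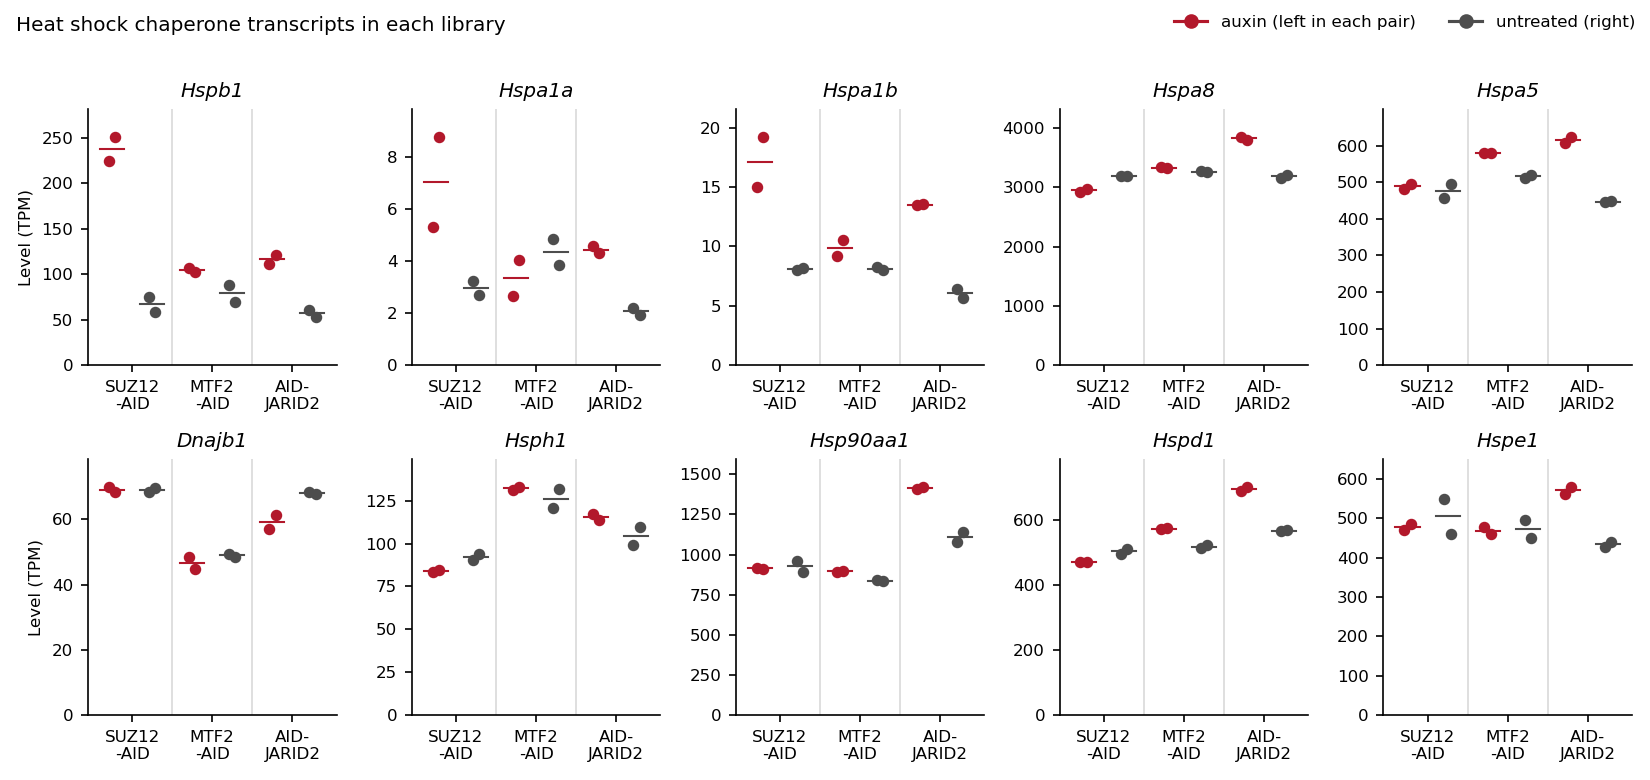
Level of each of the 10 chaperone transcripts in TPM (vertical axes, each from 0) in the 12 libraries, with auxin (red) left of untreated (grey) for each line; points are libraries and bars are means of 2. Hspb1 and Hspa1b sit highest with auxin in SUZ12-AID, whereas Hspa8, Hspa5, Hsp90aa1, Hspd1 and Hspe1 sit highest with auxin in AID-JARID2.

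**Figure D2:**
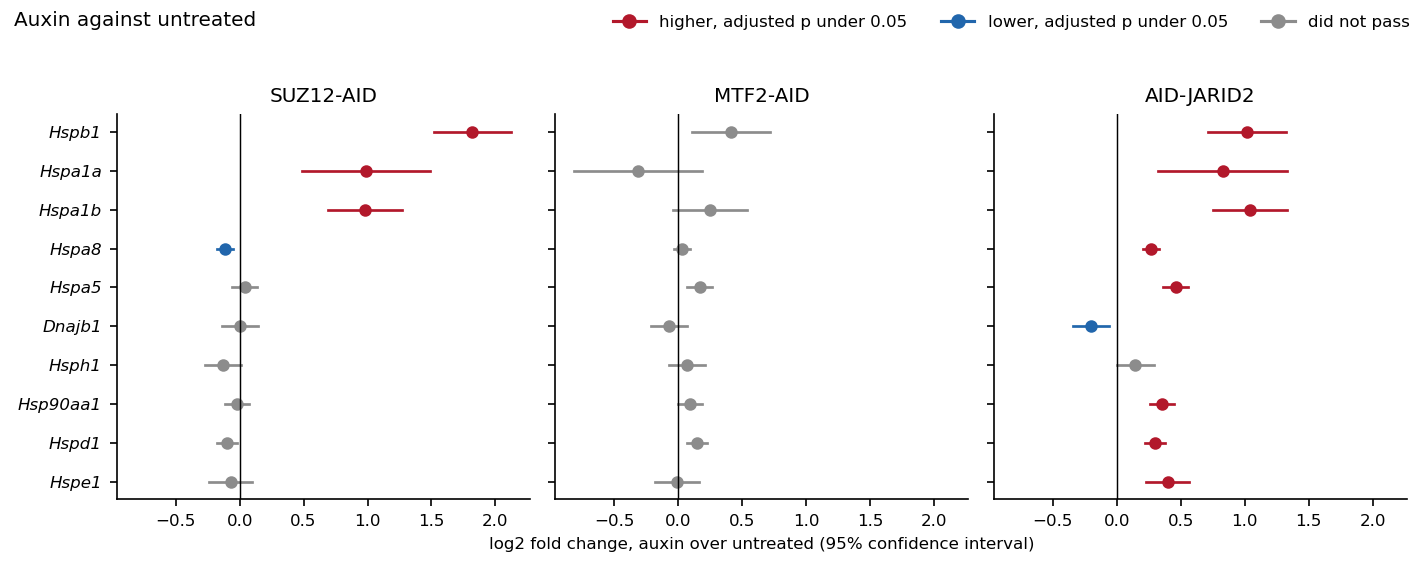
Log2 fold change of auxin over untreated for each member and line, with the 95% confidence interval from the limma fit; red and blue mark members with an adjusted p under 0.05. Hspb1, Hspa1a and Hspa1b lie right of 0 in SUZ12-AID and AID-JARID2. In AID-JARID2 Hspa8, Hspa5, Hsp90aa1, Hspd1 and Hspe1 also lie right of 0, whereas Dnajb1 lies left of it.

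Hspb1 encodes HSP27, a small heat shock protein that holds unfolded clients and protects the actin skeleton. It had 224 and 251 TPM in auxin-treated SUZ12-AID cells, against 75.5 and 58.5 TPM in untreated SUZ12-AID cells. In AID-JARID2 it had 111 and 122 TPM with auxin and 60.6 and 53.3 TPM untreated, and in MTF2-AID 107 and 102 TPM with auxin and 88.1 and 69.8 TPM untreated. In each line both auxin libraries lay above both untreated libraries. With 2 libraries per group such separation can arise without an effect. Its share over all genes was not computed, for Hspb1 or for the members below. The rise was 3.53-fold in SUZ12-AID (log2 1.82, SE 0.14, adjusted p = 5.93e-05) and 2.03-fold in AID-JARID2 (log2 1.02, SE 0.14, adjusted p = 0.000243). In MTF2-AID the log2 difference of 0.41 had a 95% interval of 0.11 to 0.71 and did not pass (adjusted p = 0.342). These are bulk libraries, in which fewer cells of a type and less RNA per cell cannot be told apart.

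The size of the Hspb1 change differed between lines. MTF2-AID minus SUZ12-AID gave a log2 difference of auxin effects of -1.41 (adjusted p = 0.00192), and that call held in all 22 alternatives tried. AID-JARID2 minus SUZ12-AID gave -0.80 (adjusted p = 0.0133). This call was lost without SUZ12-AID auxin replicate 2 (adjusted p = 0.0529), AID-JARID2 auxin replicate 1 (0.0529) or AID-JARID2 untreated replicate 1 (0.0540). AID-JARID2 minus MTF2-AID gave 0.61 (adjusted p = 0.0441), a call lost in 13 of 22 alternatives.

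Hspa1a and Hspa1b encode the stress-inducible HSP70, and are near-identical neighbours 9951 bases apart on the minus strand of chromosome 17. Their longest reading frames were 99.4% identical over 1929 aligned bases, with an identical run of 638 bases, so reads may be split between them, and how the authors treated such reads is not given in the sources used here. Both were low, at 25 to 109 reads per library for Hspa1a and 74 to 249 for Hspa1b, which limits their precision. Hspa1a had 5.32 and 8.77 TPM with auxin and 3.23 and 2.71 TPM untreated in SUZ12-AID. Its levels were 4.57 and 4.31 TPM with auxin and 2.20 and 1.93 TPM untreated in AID-JARID2. In MTF2-AID the groups overlapped, with 2.66 and 4.04 TPM with auxin and 4.86 and 3.86 TPM untreated. Hspa1b had 15.0 and 19.2 TPM with auxin and 7.98 and 8.21 TPM untreated in SUZ12-AID. In AID-JARID2 it had 13.5 TPM in both auxin libraries and 6.44 and 5.68 TPM untreated. In MTF2-AID it had 9.19 and 10.6 TPM with auxin and 8.25 and 8.02 TPM untreated, a gap narrower than in the other 2 lines.

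Both genes passed in SUZ12-AID and AID-JARID2, with fold values taken on TPM + 1, which understates them at these low levels. Hspa1a was 1.98-fold higher in SUZ12-AID (log2 0.99, SE 0.23, adjusted p = 0.0131) and 1.78-fold higher in AID-JARID2 (log2 0.83, SE 0.23, adjusted p = 0.0161). Hspa1b was 1.98-fold higher in SUZ12-AID (log2 0.98, SE 0.13, adjusted p = 0.000795) and 2.06-fold higher in AID-JARID2 (log2 1.04, SE 0.13, adjusted p = 0.000156). Summed before the fit, the pair gave log2 changes of 1.04 in SUZ12-AID (adjusted p = 0.00129), 1.05 in AID-JARID2 (adjusted p = 0.000388) and 0.07 in MTF2-AID (adjusted p = 0.946). The Hspa1a calls were fragile: that in SUZ12-AID was lost without SUZ12-AID auxin replicate 2 (adjusted p = 0.109), with quantile normalization (0.0553), with variance weights (0.0766) and with the line alone (0.139), and that in AID-JARID2 was lost whichever of its 4 libraries was left out (adjusted p 0.0515 to 0.0861). The Hspa1b call in SUZ12-AID was lost with the line alone (adjusted p = 0.0707). The AID-JARID2 and SUZ12-AID effects on Hspa1b differed by 0.06 (95% interval -0.35 to 0.46, adjusted p = 0.862) and those on Hspa1a by -0.16 (95% interval -0.87 to 0.55, adjusted p = 0.764), ranges that still allow sizeable differences.

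MTF2-AID minus SUZ12-AID gave -1.30 for Hspa1a (adjusted p = 0.0279) and -0.73 for Hspa1b (adjusted p = 0.0302), and AID-JARID2 minus MTF2-AID gave 1.14 (adjusted p = 0.0260) and 0.79 (adjusted p = 0.0109). Of these, the Hspa1b difference between AID-JARID2 and MTF2-AID held in all 21 alternatives, and the others were lost in 7 to 10 of 21. The ratio of Hspa1b to Hspa1a was 1.70 and 2.08 in untreated MTF2-AID libraries and between 2.19 and 3.46 in the other 10.

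Hspa8 encodes HSC70, the constitutive cytosolic HSP70 that also drives clathrin uncoating and chaperone-mediated autophagy, and it was the most abundant member, at 51.1% to 55.7% of the summed member TPM in every library. It had 3853 and 3807 TPM in auxin-treated AID-JARID2 cells, against 3154 and 3215 TPM in untreated AID-JARID2 cells. In SUZ12-AID it had 2928 and 2974 TPM with auxin and 3190.5 and 3198 TPM untreated. In MTF2-AID it had 3339 and 3325 TPM with auxin and 3274 and 3256 TPM untreated. Hspa8 was therefore highest with auxin in AID-JARID2 and lowest with auxin in SUZ12-AID, with no overlap between treated and untreated libraries of any line. It rose 1.20-fold in AID-JARID2 (log2 0.27, SE 0.03, adjusted p = 3.91e-05) in all 23 alternatives. The fall in SUZ12-AID was small (log2 -0.11, SE 0.03, adjusted p = 0.0160) and lost its call in 8 of 23 alternatives, among them median-of-ratios scaling (adjusted p = 0.0550) and omission of SUZ12-AID auxin replicate 1 (adjusted p = 0.0646) or auxin replicate 2 (adjusted p = 0.0500). The AID-JARID2 and SUZ12-AID effects differed by 0.38 (adjusted p = 9.08e-05), a call that held in all 22 alternatives.

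Hspa5 encodes BiP, the HSP70 of the ER lumen and a target of the ER unfolded protein response through elements such as the one printed above. It had 607 and 624 TPM with auxin and 446 and 448 TPM untreated in AID-JARID2. In SUZ12-AID it had 480.4 and 496 TPM with auxin and 456 and 495 TPM untreated, which overlap. In MTF2-AID it had 579 and 580.0 TPM with auxin and 512 and 519 TPM untreated, which do not. The rise in AID-JARID2 was 1.38-fold (log2 0.46, SE 0.04, adjusted p = 2.60e-05). The MTF2-AID difference of 0.17 (95% interval 0.07 to 0.27) did not pass (adjusted p = 0.202), nor did that of 0.04 in SUZ12-AID (95% interval -0.06 to 0.14, adjusted p = 0.602). The effect in AID-JARID2 exceeded that in SUZ12-AID by 0.42 (adjusted p = 0.00103) and that in MTF2-AID by 0.29 (adjusted p = 0.00716), and both calls held in all 22 alternatives.

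Among the members, Dnajb1 and Hsph1 are co-chaperones of cytosolic HSP70, and in AID-JARID2 Dnajb1 fell and Hsph1 did not pass. Dnajb1, an HSP40 J protein that loads clients onto HSP70, had 56.9 and 61.5 TPM with auxin and 68.5 and 67.9 TPM untreated in AID-JARID2. It fell there to 0.87 of the untreated level (log2 -0.20, SE 0.06, adjusted p = 0.0292). The call was lost without AID-JARID2 auxin replicate 1 (adjusted p = 0.206), untreated replicate 1 (0.123) or untreated replicate 2 (0.101). Dnajb1 had 70.1 and 68.3 TPM with auxin and 68.3 and 69.5 TPM untreated in SUZ12-AID, and 48.3 and 44.8 TPM with auxin and 49.5 and 48.6 TPM untreated in MTF2-AID. Those differences were 0.01 (95% interval -0.13 to 0.15) and -0.07 (95% interval -0.21 to 0.07), and neither passed.

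Hsph1 encodes HSP105, an HSP110 that acts as a nucleotide exchange factor for HSP70. It had 117 and 114 TPM with auxin and 99.3 and 109 TPM untreated in AID-JARID2, 83.5 and 84.5 TPM with auxin and 90.2 and 93.8 TPM untreated in SUZ12-AID, and 131 and 133 TPM with auxin and 120.5 and 132 TPM untreated in MTF2-AID. The log2 differences of 0.15 in AID-JARID2, -0.13 in SUZ12-AID and 0.07 in MTF2-AID did not pass (adjusted p = 0.103, 0.203 and 0.828). AID-JARID2 minus SUZ12-AID gave 0.27 (adjusted p = 0.0509), just outside the threshold, and passed in 7 of 22 alternatives.

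Hsp90aa1 encodes the inducible cytosolic HSP90. Its levels were 1410.2 and 1423 TPM in auxin-treated AID-JARID2 cells and 1079 and 1138 TPM in untreated AID-JARID2 cells. In SUZ12-AID it had 917 and 910.4 TPM with auxin and 961 and 892 TPM untreated, with the auxin libraries inside the untreated range. In MTF2-AID it had 890.2 and 900.0 TPM with auxin and 843 and 834 TPM untreated. The rise in AID-JARID2 was 1.28-fold (log2 0.35, SE 0.04, adjusted p = 0.000117) and held in all 23 alternatives. The effect in AID-JARID2 exceeded that in SUZ12-AID by 0.37 (adjusted p = 0.00152) and that in MTF2-AID by 0.26 (adjusted p = 0.0105), the second being lost with median-of-ratios scaling (adjusted p = 0.131) and with voom (adjusted p = 0.0504).

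Hspd1 and Hspe1 encode HSP60 and HSP10, the barrel and the lid of the mitochondrial chaperonin, and share the promoter region whose element is printed above. Hspd1 had 690.4 and 702 TPM with auxin and 565 and 568 TPM untreated in AID-JARID2. It had 470.3 and 469.6 TPM with auxin and 494 and 512 TPM untreated in SUZ12-AID, and 572 and 575 TPM with auxin and 513 and 522 TPM untreated in MTF2-AID. Both auxin libraries were thus above the untreated ones in AID-JARID2 and MTF2-AID and below them in SUZ12-AID. Hspe1 had 562 and 581 TPM with auxin and 427 and 441 TPM untreated in AID-JARID2. In SUZ12-AID it had 471 and 486 TPM with auxin and 549.8 and 460.2 TPM untreated, and in MTF2-AID 479 and 459 TPM with auxin and 496 and 449 TPM untreated. The groups overlapped in these last 2 lines.

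In AID-JARID2 both rose, Hspd1 1.23-fold (log2 0.30, SE 0.04, adjusted p = 0.000106) and Hspe1 1.32-fold (log2 0.40, SE 0.08, adjusted p = 0.00262), in all 23 alternatives. The Hspd1 differences of -0.10 in SUZ12-AID (adjusted p = 0.0824) and 0.15 in MTF2-AID (adjusted p = 0.152) did not pass. That in SUZ12-AID passed with median-of-ratios scaling (adjusted p = 0.0254) and without SUZ12-AID untreated replicate 1 (0.0330), and that in MTF2-AID passed with variance weights (0.0450). The effects in AID-JARID2 exceeded those in SUZ12-AID by 0.40 for Hspd1 (adjusted p = 0.000363) and 0.47 for Hspe1 (adjusted p = 0.0115), and both calls held in all 22 alternatives. The ratio of Hspd1 to Hspe1 TPM was 1.23 and 1.21 with auxin and 1.32 and 1.29 untreated in AID-JARID2. It was 0.997 and 0.966 with auxin and 0.899 and 1.11 untreated in SUZ12-AID, and 1.19 and 1.25 with auxin and 1.03 and 1.16 untreated in MTF2-AID.

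Between lines, the auxin effect on 6 of 10 members differed for AID-JARID2 against SUZ12-AID, beside 24% of all tested genes. The counts were 7 of 10 beside 24.3% for AID-JARID2 against MTF2-AID, and 5 of 10 beside 11.1% for MTF2-AID against SUZ12-AID. The comparisons share libraries, so they are not independent of each other. Leaving out 1 library also moved the number of all genes called. The member counts below without 1 library therefore cannot show a change in the members alone. Without SUZ12-AID untreated replicate 1 these counts were 7, 8 and 6. Under median-of-ratios scaling the AID-JARID2 minus MTF2-AID count was 3, beside 4072 of the 15663 tested genes. That count was 4 without MTF2-AID untreated replicate 1, AID-JARID2 auxin replicate 2 or AID-JARID2 untreated replicate 1. The MTF2-AID minus SUZ12-AID count was 1 without MTF2-AID untreated replicate 1, 2 without SUZ12-AID auxin replicate 2 or either MTF2-AID auxin library, and 3 without MTF2-AID untreated replicate 2 or either AID-JARID2 auxin library.

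**Figure D3:**
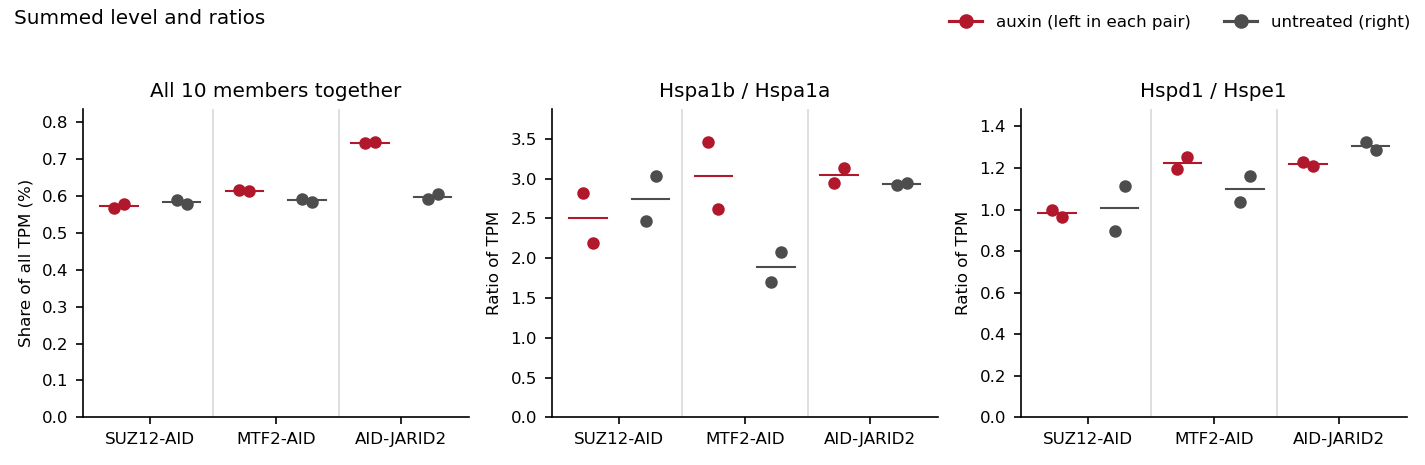
Summed level of the 10 members as a share of all TPM (left), and the ratios of Hspa1b to Hspa1a (middle) and of Hspd1 to Hspe1 (right) in TPM, with auxin (red) left of untreated (grey) in each line; points are libraries and bars are means of 2. The summed share reached 0.743% and 0.745% with auxin in AID-JARID2, above the other 10 libraries.

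Together the 10 members made up 0.743% and 0.745% of all TPM in auxin-treated AID-JARID2 libraries, against 0.591% and 0.605% in untreated AID-JARID2 libraries. The shares were 0.567% and 0.577% with auxin and 0.590% and 0.579% untreated in SUZ12-AID, and 0.616% and 0.613% with auxin and 0.591% and 0.584% untreated in MTF2-AID. The auxin-treated AID-JARID2 libraries were the highest of the 12 and the auxin-treated SUZ12-AID libraries the lowest. Between the highest and lowest library, Hspb1 spanned 4.71-fold, Hspa1a 4.55-fold and Hspa1b 3.38-fold, whereas Hspa8 spanned 1.32-fold.

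The untreated lines are the baseline of these effects, and they were not alike. Untreated MTF2-AID cells had 49.5 and 48.6 TPM of Dnajb1, against 68.3 and 69.5 TPM in untreated SUZ12-AID cells (log2 -0.48, adjusted p = 0.00189). Hsph1 went the other way, with 120.5 and 132 TPM in untreated MTF2-AID cells and 90.2 and 93.8 TPM in untreated SUZ12-AID cells (log2 0.45, adjusted p = 0.00281). These were the 2 of 10 members that differed between those lines, beside 8.65% of tested genes, and both calls held in all 22 alternatives. Without SUZ12-AID untreated replicate 1 the count was 2 beside 5.12% of genes, and without SUZ12-AID untreated replicate 2 it was 5 beside 26.1%. The share of genes was 3.33% and 3.36% without either untreated MTF2-AID library. Across the 12 libraries Dnajb1 and Hsph1 had the most negative correlation of the 45 member pairs (Pearson r = -0.90, a description over libraries that share lines and treatments).

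Untreated AID-JARID2 differed from untreated SUZ12-AID in 2 of 10 members, beside 27.6% of tested genes, with Hsp90aa1 higher by 0.26 (adjusted p = 0.00146) and Hspd1 by 0.17 (adjusted p = 0.00558). Neither call held with median-of-ratios scaling (adjusted p = 0.107 and 0.186) or with voom (adjusted p = 0.0574 and 0.212), where the called members were all lower in AID-JARID2 (2 and 3 members). The count was 3 without SUZ12-AID untreated replicate 1 and 4 without replicate 2. Untreated AID-JARID2 differed from untreated MTF2-AID in 8 of 10, beside 33.4% of tested genes. Hsp90aa1 (0.40), Dnajb1 (0.47) and Hspd1 (0.13) were higher in AID-JARID2, and Hspb1 (-0.46), Hspa1a (-0.80), Hspa1b (-0.37), Hspa5 (-0.21) and Hsph1 (-0.27) were lower. Dnajb1, Hsp90aa1 and Hspa5 kept that call in all 22 alternatives. The count was 4 without either AID-JARID2 untreated library or MTF2-AID untreated replicate 1, and 5 without MTF2-AID untreated replicate 2.

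For Hspb1 the order of group means was auxin-treated SUZ12-AID, AID-JARID2 and MTF2-AID, then untreated MTF2-AID, SUZ12-AID and AID-JARID2, and only the last 3 overlapped with a neighbour. Hspa1b had the same order, with overlap only between untreated MTF2-AID and untreated SUZ12-AID. Hspa8, Hspa5, Hsp90aa1, Hspd1 and Hspe1 were each highest in auxin-treated AID-JARID2, clear of the next group, whereas Hsph1 was highest in the 2 MTF2-AID groups, which overlapped.

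The genes closest to each member over the 12 libraries, by Pearson r of log2 levels among 10145 genes with a mean of at least 5 TPM, are given as a description. The nearest to Hspb1 were Atp6v0e (r = 0.97), Tagln2 (0.96) and Npr1 (0.95), and the nearest to Hspa1b were Cgref1 (0.96), Dysf (0.96) and Plk3 (0.96). Hspa8 lay nearest to Eif4e (0.99), Ddx18 (0.98) and Ncbp1 (0.98), and Hspd1 to Lars (0.99), Nsun2 (0.98) and Tagln (0.98). For Hsp90aa1 they included Polr2h (0.99) and Cnn1 (0.99). For Hspe1 the likeness was weaker, at 0.92 for Eif2s2, 0.91 for Gpx1 and 0.89 for Upf3b. For Hspa5 it was Tmem33 (0.97), Prickle1 (0.97) and Farsb (0.95), for Dnajb1 Cept1 (0.97), Tmem167b (0.95) and Tecr (0.95), for Hsph1 Cdk8 (0.98), Zcchc8 (0.98) and Zfp664 (0.97), and for Hspa1a Rab21 (0.96), Fam134b (0.96) and Slc48a1 (0.95). Among the members, Hspb1 and Hspa1b (r = 0.93) and Hspa8 and Hspd1 (r = 0.93) were the most alike, and Hspb1 and Hspa8 had r = -0.17.

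Of the heat shock factors, Hsf1 and Hsf2 did not pass in the limma fit of any line. Hsf1, the master regulator of the cytosolic heat shock response, had 90.3 and 86.4 TPM with auxin and 95.7 and 101 TPM untreated in SUZ12-AID, 94.1 and 89.8 TPM with auxin and 93.0 and 92.0 TPM untreated in AID-JARID2, and 95.2 and 98.8 TPM with auxin and 101 and 102 TPM untreated in MTF2-AID. Its log2 differences of -0.15, -0.01 and -0.07 did not pass (adjusted p = 0.0788, 0.938 and 0.782). In SUZ12-AID Hsf1 was called lower with median-of-ratios scaling (-0.25, adjusted p = 0.0170) and without SUZ12-AID untreated replicate 1 (-0.19, adjusted p = 0.0428). HSF1 acts mainly through its activation as a protein, which these data do not measure. Hsf2, a second heat shock factor, had group means of 11.6 to 13.8 TPM and did not pass in any line. Of the 4 factor genes listed, Hsf4 (0.90, adjusted p = 0.0283) and Hsbp1 (0.21, adjusted p = 0.0121), which encodes a small HSF1-binding protein, were higher in SUZ12-AID, and 0 passed in AID-JARID2. The Hsf4 call was lost with quantile normalization (adjusted p = 0.114) and without SUZ12-AID untreated replicate 1 (0.0775), and the Hsbp1 call with median-of-ratios scaling (0.260). In AID-JARID2 Hsbp1 was called lower with quantile normalization (adjusted p = 0.0249) and without SUZ12-AID untreated replicate 1 (0.0346).

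The rest of the chaperone network was read from 10 lists of 89 genes, of which 86 were tested. In AID-JARID2 43 of the 86 passed, in SUZ12-AID 24 and in MTF2-AID 0, beside 36.5%, 19.1% and 0.0638% of all tested genes. With median-of-ratios scaling AID-JARID2 had 37 and SUZ12-AID 22, beside 5874 and 3651 of the 15663 tested genes. With voom they had 38 and 22, beside 6255 and 3744 of those genes. Without SUZ12-AID untreated replicate 1 the counts in AID-JARID2 and SUZ12-AID changed, and so did the shares of all tested genes called. The counts alone therefore do not show a change in these lists. For single lists, the shares of all tested genes were 19.5% higher and 17% lower in AID-JARID2 and 15.1% higher and 4.05% lower in SUZ12-AID. In MTF2-AID 12 had an unadjusted p under 0.05 in the limma fit, again without a share of all genes to set beside it. For MTF2-AID, voom called 0 and the fit with variance weights called 2. With variance weights SUZ12-AID had 7 beside 7.62% of all tested genes, and AID-JARID2 had 57 beside 48%.

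**Figure D4:**
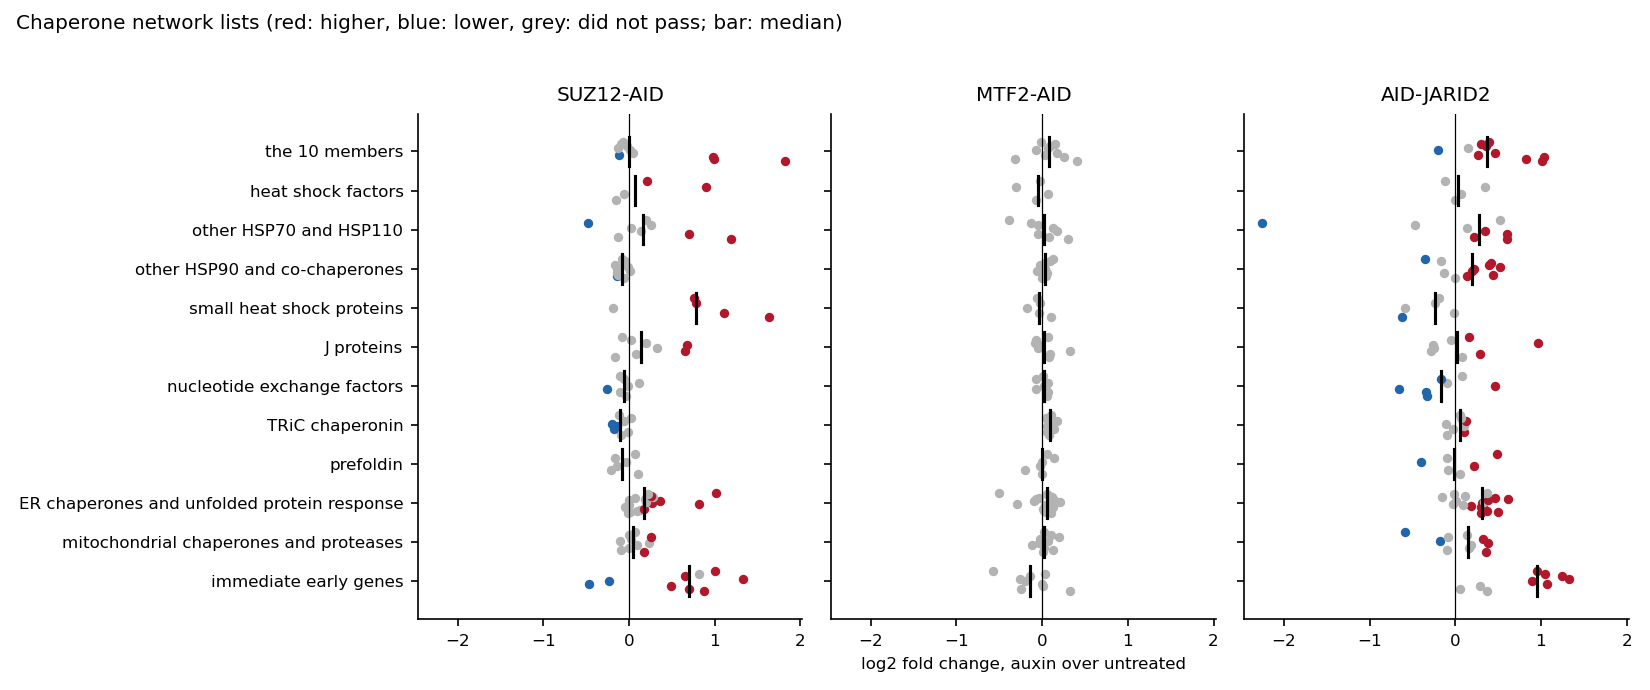
Log2 fold change of auxin over untreated for the 10 members and for the genes of each list, by line; points are genes, colours mark an adjusted p under 0.05, black bars are list medians. The small heat shock protein list lies right of 0 in SUZ12-AID (median 0.78) and left of it in AID-JARID2 (median -0.24), and the ER list lies right of 0 in AID-JARID2 (median 0.32).

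Small heat shock proteins other than Hspb1 were higher in SUZ12-AID for 4 of the 5 tested of 8 listed, with 0 lower, and in AID-JARID2 0 were higher and 1 was lower. Cryab, the alpha-B crystallin of muscle and lens, had 96.9 and 109 TPM with auxin and 37.1 and 28.5 TPM untreated in SUZ12-AID (log2 1.63, adjusted p = 0.000182). In AID-JARID2 it had 1.19 and 1.83 TPM with auxin and 2.73 and 2.90 TPM untreated (log2 -0.62, adjusted p = 0.0120), a call lost with voom (adjusted p = 0.210). Hspb2 (1.11) and Hspb7 (0.78), both small heat shock proteins of muscle, were higher in SUZ12-AID, where their untreated means were 2.23 and 0.935 TPM, and the Hspb7 call was lost with quantile normalization (adjusted p = 0.121). The difference of effects between AID-JARID2 and SUZ12-AID passed for 4 of the 5, all negative.

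Of 11 other HSP90 genes and co-chaperones, 7 were higher and 1 lower there, with 0 higher and 1 lower in SUZ12-AID. Ahsa1, which speeds the HSP90 ATPase, had 428 and 420.0 TPM with auxin and 319 and 308 TPM untreated in AID-JARID2 (log2 0.44, adjusted p = 3.71e-05). Fkbp5, a steroid receptor co-chaperone, had 102 and 101 TPM with auxin and 69.1 and 72.1 TPM untreated in AID-JARID2 (log2 0.52, adjusted p = 6.42e-05), and Ppid, another immunophilin, rose by 0.42 (adjusted p = 0.000113). Stip1, the adaptor between HSP70 and HSP90, was the 1 that fell in SUZ12-AID (-0.14, adjusted p = 0.0254), a call lost with quantile normalization (adjusted p = 0.0673) and voom (0.112). With median-of-ratios scaling the AID-JARID2 counts were 4 higher and 2 lower.

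ER chaperones and unfolded protein response genes were higher for 11 of 19 in AID-JARID2 and 6 of 19 in SUZ12-AID, with 0 lower in either line. The largest changes in AID-JARID2 were those of Creld2 (0.62, adjusted p = 0.000537), Hyou1 (0.49, adjusted p = 0.000251), the ER HSP110 that works with BiP, and Herpud1 (0.47, adjusted p = 0.00728). In SUZ12-AID they were those of Ddit3 (1.02, adjusted p = 0.00163), the stress transcription factor CHOP, Dnajb9 (0.82, adjusted p = 0.00240), an ER J protein, and Sdf2l1 (0.36, adjusted p = 0.0186). Hyou1 had 194.5 and 196 TPM with auxin and 142 and 134 TPM untreated in AID-JARID2. Ddit3 had 29.1 and 32.1 TPM with auxin and 15.9 and 13.4 TPM untreated in SUZ12-AID. With median-of-ratios scaling the calls of Ddit3 and Dnajb9 were kept in SUZ12-AID and the other 4 were lost, Sdf2l1 among them (adjusted p = 0.106). The count in AID-JARID2 was again 11, with Pdia6 lost and Dnajc3 gained.

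Other HSP70 and HSP110 genes were higher for 4 and lower for 1 of 8 in AID-JARID2, and higher for 2 and lower for 1 in SUZ12-AID. Hspa2 rose by 1.19 in SUZ12-AID (adjusted p = 0.00173) and 0.61 in AID-JARID2 (adjusted p = 0.0249), and Hspa4l by 0.70 (adjusted p = 0.0129) and 0.61 (adjusted p = 0.0137). The Hspa4l call in SUZ12-AID was lost with quantile normalization (0.37, adjusted p = 0.0741). Without SUZ12-AID untreated replicate 1 the Hspa4l difference there was 0.55. Hspa12b, an HSP70-like gene of endothelium, had 1.21 and 1.04 TPM with auxin and 8.98 and 9.33 TPM untreated in AID-JARID2 (log2 -2.26, adjusted p = 2.49e-07), and fell by 0.48 in SUZ12-AID (adjusted p = 0.0138). Of 8 J proteins, 3 were higher in AID-JARID2, led by Dnajb5 (0.97, adjusted p = 2.61e-05) with Dnaja2 (0.28) and Dnajc7 (0.16), and 2 in SUZ12-AID, Dnajb4 (0.68) and Dnaja4 (0.65), with 0 lower in either. Both SUZ12-AID calls were lost with quantile normalization (adjusted p = 0.0650 and 0.0777), that of Dnajb4 also without SUZ12-AID untreated replicate 1 (0.0547), and Dnaja1 was called lower with median-of-ratios scaling (-0.26). The Dnajc7 call in AID-JARID2 was lost with median-of-ratios scaling (adjusted p = 0.152) and voom (0.0835).

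Of 7 nucleotide exchange factors, 4 were lower and 1 was higher in AID-JARID2. Bag3, which couples HSP70 to autophagy and is itself a heat shock gene, had 90.4 TPM in both auxin libraries and 144 and 141 TPM untreated in AID-JARID2 (log2 -0.65, adjusted p = 6.12e-06). It fell by 0.26 in SUZ12-AID (adjusted p = 0.00594), the 1 call of the list there. Bag2 fell (-0.34) and Bag4 rose (0.47) in AID-JARID2. The TRiC chaperonin, which folds actin and tubulin, had 3 of 8 subunits lower in SUZ12-AID, Cct5 (-0.20), Cct3 (-0.17) and Cct4 (-0.14), and 2 higher in AID-JARID2, Cct6a (0.12) and Cct2 (0.11), calls that were lost there with median-of-ratios scaling and with voom. In SUZ12-AID the Cct4 and Cct5 calls were lost with quantile normalization (adjusted p = 0.331 and 0.154) and the Cct3 and Cct4 calls with voom (0.0599 and 0.0815). Of 6 prefoldin subunits, 2 were higher in AID-JARID2, Vbp1 (0.49) and Pfdn4 (0.22), and 1 was lower, Pfdn5 (-0.40), with 0 in SUZ12-AID, and the Pfdn4 call was lost with median-of-ratios scaling (adjusted p = 0.0977), quantile normalization (0.0711) and voom (0.102). Of 10 mitochondrial chaperones and proteases, 3 were higher and 2 lower in AID-JARID2 and 2 were higher in SUZ12-AID. Hspa9, the mitochondrial HSP70 that feeds HSP60, rose by 0.35 in AID-JARID2 (adjusted p = 7.65e-05) and by 0.18 in SUZ12-AID (adjusted p = 0.0122), Dnaja3, its J protein, by 0.38 in AID-JARID2, and Clpx by 0.25 in SUZ12-AID, while Htra2 fell by 0.59 in AID-JARID2. Both SUZ12-AID calls were lost with median-of-ratios scaling (adjusted p = 0.253 for Hspa9 and 0.0937 for Clpx), and that of Clpx also without SUZ12-AID untreated replicate 1 (0.129).

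Summed levels of cell type markers differed between the same groups. A sum of TPM is weighted to its most abundant markers, so it does not give the direction of each marker. In AID-JARID2 the summed level of 8 cardiac precursor markers was 168 and 139 TPM with auxin and 2109.8 and 2058 TPM untreated. Tbx5 was under 0.5 TPM in both of these groups, and the fall of the sum is not split by marker here. The sum of 7 pluripotent and epiblast markers in AID-JARID2 was 2688 and 2699.6 TPM with auxin and 413 and 395 TPM untreated. Pou5f1 alone had 1599.8 and 1601 TPM with auxin and 335 and 316 TPM untreated there. In SUZ12-AID the cardiac precursor sum was 1451 and 1349 TPM with auxin and 2469.9 and 2755 TPM untreated, the pluripotent sum was 253 and 309 TPM with auxin and 165 and 142 TPM untreated, and the sum of 6 surface epithelium markers was 3945 and 4347 TPM with auxin and 2465 and 2329 TPM untreated. The lower cardiac precursor sum in SUZ12-AID lay in Hand1, at a mean of 1033 TPM with auxin and 2421 TPM untreated. Of the other 7 markers, 6 had higher means with auxin, among them Hand2 (159.9 TPM with auxin and 48.2 TPM untreated) and Nkx2-5 (25.9 TPM with auxin and 2.25 TPM untreated), and Pdgfra had 20.5 TPM with auxin and 20.6 TPM untreated. In MTF2-AID the cardiac precursor sums were 1599 and 1582 TPM with auxin and 1564.5 and 1543 TPM untreated, and the pluripotent sums 189.9 and 185 TPM with auxin and 184 and 193 TPM untreated. Epithelium sums were 1871 and 1882 TPM with auxin and 1517 and 1513 TPM untreated in MTF2-AID, and 1274 and 1366 TPM with auxin and 2108 and 2218 TPM untreated in AID-JARID2. The lower sum in AID-JARID2 lay in Krt8 (means of 339.6 TPM with auxin and 1019 TPM untreated) and Krt18 (372 TPM with auxin and 895 TPM untreated), while the other 4 markers had higher means with auxin, such as Epcam (342 TPM with auxin and 82.8 TPM untreated). Endothelial sums (5 markers) ranged from 7.77 to 110.3 TPM over the 12 libraries, neural sums (4 markers) from 7.06 to 81.4 TPM and endoderm sums (4 markers) from 0.321 to 5.73 TPM, with Afp and Ttr under 0.5 TPM throughout. Of the neural markers, Sox1, Pax6 and Neurog1 were also under 0.5 TPM throughout, so the neural sums were mostly Tubb3. The neural sums in AID-JARID2 were 74.5 and 81.4 TPM with auxin and 14.2 and 11.9 TPM untreated. Blood sums (4 markers) were 3.72 and 1.74 TPM with auxin and 51.2 and 37.7 TPM untreated in SUZ12-AID, 2.57 and 1.43 TPM with auxin and 11.9 and 7.29 TPM untreated in MTF2-AID, and 1.76 and 1.44 TPM with auxin and 2.19 and 1.67 TPM untreated in AID-JARID2. Hba-x was at 0 in both auxin libraries of SUZ12-AID and in all 4 AID-JARID2 libraries. The part of these shifts in the chaperone results was not tested.

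Immediate early genes, which respond to handling and to signalling, also moved. In AID-JARID2 6 of the 9 tested were higher and 0 lower, led by Atf3 (1.32, adjusted p = 0.000286), Dusp1 (1.25, adjusted p = 4.96e-06) and Egr1 (1.07, adjusted p = 2.19e-05). In SUZ12-AID 6 were higher and 2 lower, led by Atf3 (1.33, adjusted p = 0.000959), Btg2 (1.00, adjusted p = 0.000215) and Fos (0.88, adjusted p = 0.00657). There the lower call of Ier2 was lost with quantile normalization (adjusted p = 0.0668) and voom (0.114). The higher call of Junb was lost with quantile normalization (adjusted p = 0.0701). In MTF2-AID 0 of 9 passed. Over all tested genes 19.5% were higher and 17% lower in AID-JARID2, and 15.1% higher and 4.05% lower in SUZ12-AID. In MTF2-AID 0.0638% of them changed. The part of the immediate early genes in the chaperone results was not tested.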

How the data were processed

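Polyadenylated RNA of 12 libraries, 2 per group, was sequenced as strand-marked (dUTP) libraries, per the labels' protocols. Alignment used STAR 2.6.1d and mm10, per the submitters' processing notes. Neither the counting program nor its treatment of reads matching several genes is given in those sources. The authors deposited 1 table of TPM values (scaled for length and depth) with a column per library. From the low values, whole reads were recovered for all values above 0 (100% within 0.001 of a whole number). Totals were 10138920 to 17173072 reads.

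The main test was limma 3.58.1 (R 4.3.3, lmFit, contrasts and eBayes with a trend) on log2(TPM + 1), so fold changes of low genes are understated. All 12 libraries and 6 groups shared 1 estimate of the spread (6 residual and 3.9 prior degrees of freedom). Genes with at least 1 TPM in 2 libraries entered, and p-values were adjusted by the Benjamini-Hochberg method over all 15663. The fit was also run on simulated data with the same spread in all libraries and changes only in genes with many reads. That run cannot speak for lines of unequal spread or for low genes such as Hspa1a. P-values measure the spread between the deposited replicates. The members and lists were chosen with earlier results of these data known. Named genes were the 10 members, Hsf1 and Hsf2, up to 3 called genes per list and line with the largest change, and the 3 genes most like each member, of which 1 is not reported here. Gene positions are from GENCODE vM21, promoters from RefSeq. Alternatives were other pseudocounts, filters and scalings, variance weights, each line alone, a replicate block, each library left out and Hspa1a and Hspa1b summed. Voom on the recovered reads was added after the data were seen. Replicate numbers were not shown to pair the samples (correlations of replicate differences between -0.039 and 0.096).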

Additional observations from a re-analysis of the deposited data

Results flagged for a closer look

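The auxin effect differed between lines for the members below, each by the contrast of the 2 effects in the limma fit (log2 difference, p adjusted over all genes). For AID-JARID2 minus SUZ12-AID the difference was -0.80 for Hspb1 (adjusted p = 0.0133), 0.38 for Hspa8 (9.08e-05), 0.42 for Hspa5 (0.00103), 0.37 for Hsp90aa1 (0.00152), 0.40 for Hspd1 (0.000363) and 0.47 for Hspe1 (0.0115). For MTF2-AID minus SUZ12-AID it was -1.41 for Hspb1 (0.00192), -1.30 for Hspa1a (0.0279), -0.73 for Hspa1b (0.0302), 0.14 for Hspa8 (0.0404) and 0.25 for Hspd1 (0.0121). For AID-JARID2 minus MTF2-AID it was 0.61 for Hspb1 (0.0441), 1.14 for Hspa1a (0.0260), 0.79 for Hspa1b (0.0109), 0.24 for Hspa8 (0.00147), 0.29 for Hspa5 (0.00716), 0.26 for Hsp90aa1 (0.0105) and 0.41 for Hspe1 (0.0215). The MTF2-AID minus SUZ12-AID call was lost for Hspa8 in 16 of 22 alternatives (adjusted p up to 0.480) and for Hspd1 in 4 of 22 (up to 0.106), and the AID-JARID2 minus MTF2-AID call was lost for Hspe1 in 6 of 22 (up to 0.0901).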

How the results depend on the processing

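The number of members called stayed within 1.5 times of its value for AID-JARID2 (7 to 10) and for AID-JARID2 minus SUZ12-AID (5 to 7) in every alternative run. In SUZ12-AID (4) it was 2 with quantile normalization, 2 with variance weights, 1 with the line alone and 2 to 5 without 1 library, and in MTF2-AID (0) it was 2 with variance weights. For MTF2-AID minus SUZ12-AID (5) it was 2 with no filter, 1 with quantile normalization, 2 with variance weights, 3 with voom and 1 to 6 without 1 library. For AID-JARID2 minus MTF2-AID (7) it was 4 with no filter, 3 with median-of-ratios scaling and 4 to 8 without 1 library. Between untreated lines, AID-JARID2 against SUZ12-AID (2) gave 5 with quantile normalization and 2 to 4 without 1 library, MTF2-AID against SUZ12-AID (2) gave 2 to 5 without 1 library, and AID-JARID2 against MTF2-AID (8) gave 5 with no filter, 5 with voom and 4 to 8 without 1 library. With the replicate block 9 members were called in AID-JARID2, 4 were called in SUZ12-AID and none (0) with MTF2-AID. The counts between lines were then 6, 4 and 6 for AID-JARID2 minus SUZ12-AID, MTF2-AID minus SUZ12-AID and AID-JARID2 minus MTF2-AID. The number of all genes called also moved between alternatives, so a change in these counts is not one of the members alone.

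Log2 values that changed sign, none of them called in the fit as reported, are given next. In SUZ12-AID they were Hspa5 (-0.054) and Dnajb1 (-0.088) with median-of-ratios scaling, Dnajb1 (-0.019) and Hsp90aa1 (0.055) with quantile normalization, and, without 1 library, Dnajb1 (-0.013 to 0.024), Hspa5 (-0.019 to 0.10), Hsp90aa1 (-0.073 to 0.035) and Hspe1 (-0.20 to 0.057). In MTF2-AID Hspe1 ran between -0.081 and 0.061 without 1 library. The AID-JARID2 minus SUZ12-AID difference was -0.0070 for Hspa1b with a pseudocount of 5 and 0.010 for Hspa1a with quantile normalization, and without 1 library -0.11 to 0.22 for Hspa1b and -0.47 to 0.15 for Hspa1a. MTF2-AID minus SUZ12-AID gave 0.0048 for Dnajb1 with median-of-ratios scaling and -0.066 to 0.19 for Hspe1 without 1 library. Untreated AID-JARID2 against SUZ12-AID gave 0.19 for Hspa8 with quantile normalization (adjusted p = 0.0117) and -0.018 to 0.0095 without 1 library. Untreated MTF2-AID against SUZ12-AID gave -0.064 for Hspa1b, -0.047 for Hspa8 and -0.038 for Hspd1 with median-of-ratios scaling, -0.11 for Hspa1b with quantile normalization, and -0.067 for Hspa1b, -0.044 for Hspa8 and -0.035 for Hspd1 with voom. Without 1 library it gave -0.012 to 0.025 for Hspa1b and -0.22 to 0.037 for Hspe1. The cause was not tested.

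Over all genes SUZ12-AID had 2997 calls, and 156 with the line alone. The share of its calls that were higher was 78.8%, 57.6% with median-of-ratios scaling and 53.1% with quantile normalization, which moved the median of all genes by -0.10. Low counts limit Hspa1a and Hspa1b.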
